A study of Homo sapiens with 3 samples.

Results

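Closely paired peaks are places where the chromatin-bound Idax protein was listed at neighbouring stretches of DNA that lie less than 1 kb apart. They were chosen from the autosomal peaks of wild-type Myc-Idax in HEK293T cells by 1 measurement, the gap from the end of a peak to the start of the next, which had to be below 1000 bp. The rule picked 2436 of 16528 autosomal peaks (14.7%), and the other 14092 peaks (85.3%) had no neighbour so close. The whole series held 17127 peaks, of which 17089 came from the wild-type list and 38 from a list for a mutant protein.

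HEK293T cells derive from human embryonic kidney and express the large T antigen of SV40. Stable lines carried Myc-tagged wild-type Idax, a Myc-tagged Idax with a DNA-binding mutation (Myc-IdaxDBM), or an empty vector, and chromatin of all 3 was immunoprecipitated with an anti-c-Myc agarose gel and sequenced. Each tagged protein was thus supplied by transfection and not the cells' own. The design names 2 replicates for each condition, but 1 peak list per tagged protein was analysed, each called over the empty-vector cells, so no value below has a replicate error and no test between conditions was possible. Depth is unknown, since the lists hold no read counts, and the empty-vector reads were not analysed here.

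Idax, also called CXXC4, binds DNA through its CXXC zinc finger, which recognises CpG that is not methylated. Such CpG is concentrated in CpG islands, short CpG-rich stretches that cover the start sites of many human genes, and at regulatory genes of development several islands can lie side by side. Idax is also known as an inhibitor of Wnt signalling through its binding to Dishevelled. No hg19 sequence or gene annotation was used here, so no peak is assigned to a gene or to an island, and regions are named by their position on hg19.

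The 2436 paired peaks formed 1149 runs, a run being a chain of peaks in which each gap is below 1000 bp. Most runs, 1035 (90.1%), held 2 peaks. A further 96 runs (8.36%) held 3 peaks, 13 held 4, 4 held 5 and 1 held 6, so that 366 peaks lay in the 114 runs of 3 or more. The paired peaks covered 2.76 Mb, which is 13.5% of the 20.5 Mb covered by all autosomal peaks. The gaps inside the runs added 0.316 Mb, or 10.3% of the length of the runs.

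Runs were short stretches. The median run of 2 spanned 2299 bp from the first base of its first peak to the last base of its second (quartiles 1843 and 2891 bp). Runs of 3 spanned a median of 3668 bp (quartiles 3073 and 4695 bp), and the 18 runs of 4 or more spanned a median of 5691 bp (quartiles 4606 and 8055 bp). The shortest run measured 868 bp and the longest 14368 bp.

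The gaps were mostly far below the limit that defined them. The 1287 gaps had a median of 148 bp (quartiles 50 and 372 bp). For scale, all 16506 gaps between neighbouring autosomal peaks had a median of 52111 bp, a contrast that the rule itself sets. Gaps under 50 bp numbered 318 (24.7% of those below the limit), gaps under 100 bp numbered 516 (40.1%), and gaps under 500 bp numbered 1079 (83.8%). No gap was 0 or negative, so no peaks of the list touched or overlapped, and 10 gaps were 1 bp long.

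Counted in steps of 50 bp, gaps became rarer with length up to about the limit and then stayed nearly level. There were 318 gaps below 50 bp and 198 from 50 to below 100 bp. The number per 50 bp was 105 between 100 and 250 bp, 49.6 between 250 and 500 bp and 20.8 between 500 and 1000 bp. Beyond the limit it was 13.5 per 50 bp between 1000 and 2000 bp and 11.2 between 2000 and 5000 bp.

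**Figure D1:**
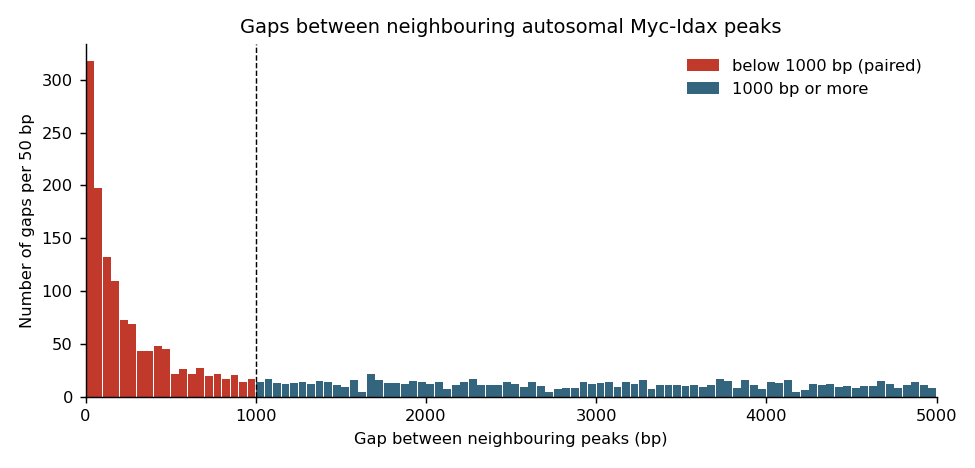
Number of gaps per 50 bp (y axis) against the gap between neighbouring autosomal wild-type peaks in bp (x axis), with gaps below 1000 bp in red, gaps of 1000 bp or more in blue and the limit as a dashed line. The first bar holds 318 gaps, and bars beyond 1000 bp average 13.5 per 50 bp up to 2000 bp.

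The limit itself cut through this level stretch. From 900 to below 1000 bp there were 31 gaps, with a median score of 198.5 and a median width of 1152 bp over their 62 peaks. From 1000 to below 1100 bp there were also 31 gaps, with a median score of 159 and a median width of 954 bp over their 62 peaks. The largest gaps inside the limit were 999 bp on chromosome 17 (peaks at 61042389 to 61044610 and 61045610 to 61046293), 995 bp on chromosome 2 (176993309 to 176995864 and 176996860 to 176997570) and 992 bp on chromosome 22 (38070836 to 38071761 and 38072754 to 38073684). The smallest gaps left out were 1001 bp on chromosome 11 (447855 to 448697 and 449699 to 451511), 1001 bp on chromosome 19 (46171702 to 46173038 and 46174040 to 46174768) and 1004 bp on chromosome 1 (110088813 to 110089484 and 110090489 to 110091653).

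Paired peaks were weaker than the other peaks of the list. The score is the authors' deposited value from the peak caller. Its scale is not stated in the lists, but its values have the form of the MACS score, in which a higher value marks a peak less likely to be background. Its median was 150 in paired peaks (quartiles 83.8 and 297) and 240.3 in the other peaks (quartiles 119 and 426), a difference of -90.3. The median was lower in paired than in other peaks on all 22 autosomes. Scores come from the same peak calls as the gaps that chose the members, so this difference is a description and was not tested.

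Paired peaks were also narrower, with a median of 960.5 bp (quartiles 738 and 1359 bp), against 1143 bp in the other peaks (quartiles 852 and 1526 bp), a difference of -182.5 bp. The median width, too, was lower in paired peaks on all 22 autosomes, although on chromosome 19 by little, with 1005.5 bp in paired peaks and 1008 bp in others. Width and score were tied in both groups, with a Spearman rho of 0.76 across the 2436 paired peaks and 0.76 across the 14092 other peaks, which share 1 library. Within quartile groups of score the widths of paired and other peaks nearly coincided. In the lowest group the median width was 710 bp in paired peaks and 715 bp in others, and in the highest it was 1688.5 bp in paired peaks and 1636 bp in others.

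Within quartile groups of width, a lower score of the paired peaks was still seen, least among the narrowest. Among peaks of 275 to 827 bp the median score was 78.9 in 871 paired peaks and 81.7 in 3261 others. Among peaks of 828 to 1116 bp it was 144 in paired peaks and 187 in others, and among peaks of 1117 to 1503 bp it was 239 in paired peaks and 307 in others. Among peaks of 1504 bp or more it was 445 in paired peaks and 480.4 in others.

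**Figure D2:**
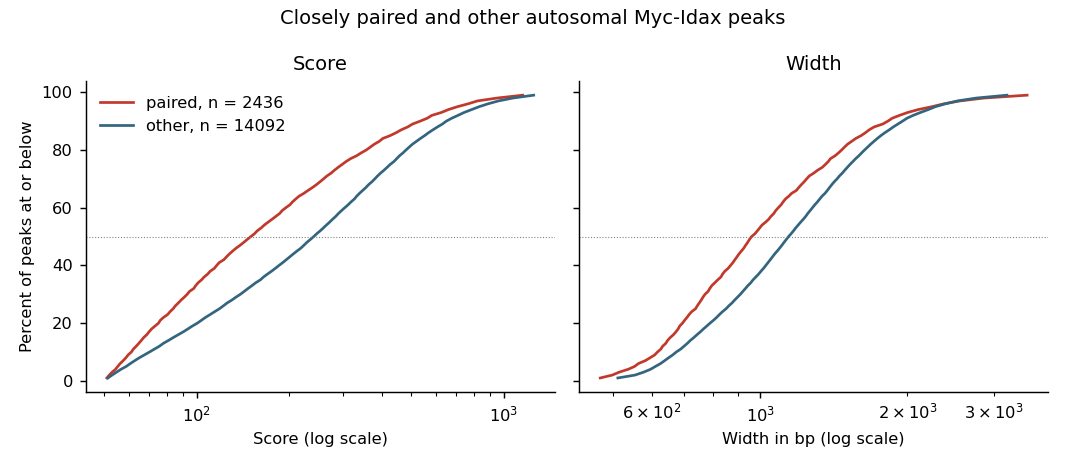
Percent of peaks (y axis) at or below a given score (left) or width in bp (right), both on log axes, for 2436 paired peaks (red) and 14092 other peaks (blue), drawn from percentile 1 to 99 with the median dotted. The red curve lies left of the blue one at the median in both panels (score 150 against 240.3, width 960.5 against 1143 bp), and the curves meet among the widest peaks.

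The share of peaks that were paired was lower at higher scores and then level. In the lowest decile of the list by score (50.01 to 67.75) 22.7% of peaks were paired (95% Clopper-Pearson interval 20.7 to 24.8), and in the next decile 22.3%. The share was 15.1% in the decile just below the median (171.62 to 225.08). It lay between 9.13% and 10.1% in the 4 highest deciles. Intervals of shares cover counting error only and treat peaks as independent, although the members of a run are paired together.

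Some strong peaks nevertheless had close partners. Of the 10 autosomal peaks of highest score 2 were paired, too few to give a share. Of the 100 highest 12 were (12%), and of the 1000 highest 98 were (9.8%), against 14.7% of all autosomal peaks. Paired peaks made up 80 of the 527 peaks of 2500 bp or more (15.2%), close to their share of all peaks. Of the 792 peaks narrower than 600 bp they made up 202 (25.5%).

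The partners in a run of 2 were commonly unequal. Over the 1035 runs of 2, the stronger partner had a median score of 265 (quartiles 158 and 460) and the weaker one of 89.1 (quartiles 64.8 and 145). The higher score was a median of 2.28 times the lower (quartiles 1.43 and 4.28, highest 27.5). It was at least 2 times the lower in 580 runs (56%), at least 5 times in 207 (20%) and at least 10 times in 59 (5.7%). In 279 runs (27%) it was less than 1.5 times the lower.

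Set against the median score of all autosomal peaks, 225, the mixed run was the most frequent kind. In 479 runs (46.3%) 1 partner lay above that median and the other below it. In 437 runs (42.2%) both lay below, and in 119 (11.5%) both lay above. Of neighbours 50000 bp or more apart, both lay above in 29.5%. The weaker partner scored under 100 in 598 runs (57.8%), and both did in 100 runs (9.66%).

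The stronger partner was usually the wider. This was so in 806 runs (77.9%, 95% interval 75.2 to 80.4), with a median width of 1168 bp for the stronger partner and 804 bp for the weaker one. Neighbours 50000 bp or more apart had the same order, with median widths of 1364 bp and 946 bp. Score and width were correlated in paired and other peaks alike, so this order is not particular to close partners. The partner with the lower coordinate was the stronger in 510 runs (49.3%, 46.2 to 52.4), so neither side was favoured along the chromosome. Across the 1035 runs, which share 1 library, the scores of the partners had a Spearman rho of -0.10 and a Pearson r of -0.05, and their widths had a rho of 0.11 and an r of 0.18. For scores of neighbours 1000 to 2000 bp apart the rho was -0.15, and for those 50000 bp or more apart it was 0.09.

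Gap and score were hardly correlated. Across the runs of 2 its Spearman rho was 0.00 with the score ratio, 0.02 with the stronger score and 0.02 with the weaker score. Over all neighbouring peaks, those with a gap below 50 bp had medians of 263 for the stronger and 89.7 for the weaker, and those 500 to 1000 bp apart had medians of 303 and 94.4.

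A stronger and a weaker peak are found in any set of neighbours, so neighbouring peaks farther apart give the level to read these values against. In the 5 gap classes below 1000 bp the higher score was a median of 2.06 to 2.47 times the lower, against 2.12 times for the 8440 neighbours 50000 bp or more apart. The ratio of close partners was thus near that of distant neighbours. No autosomal peak scored below 50.01, which limits the ratio more where scores are low. Similar ratios therefore do not show that close and distant neighbours were equally unequal. The levels differed more, with class medians of 228 to 303 for the stronger and 81.5 to 98.2 for the weaker of close neighbours, against 378 and 137 in distant ones. Both neighbours lay above the list median in 8.57% to 16.3% of close neighbours and in 29.5% of distant ones. Neighbours 1000 to 2000 bp apart, just beyond the limit, resembled the close ones, with medians of 292 and 92.3 and both above the list median in 12.2%.

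**Figure D3:**
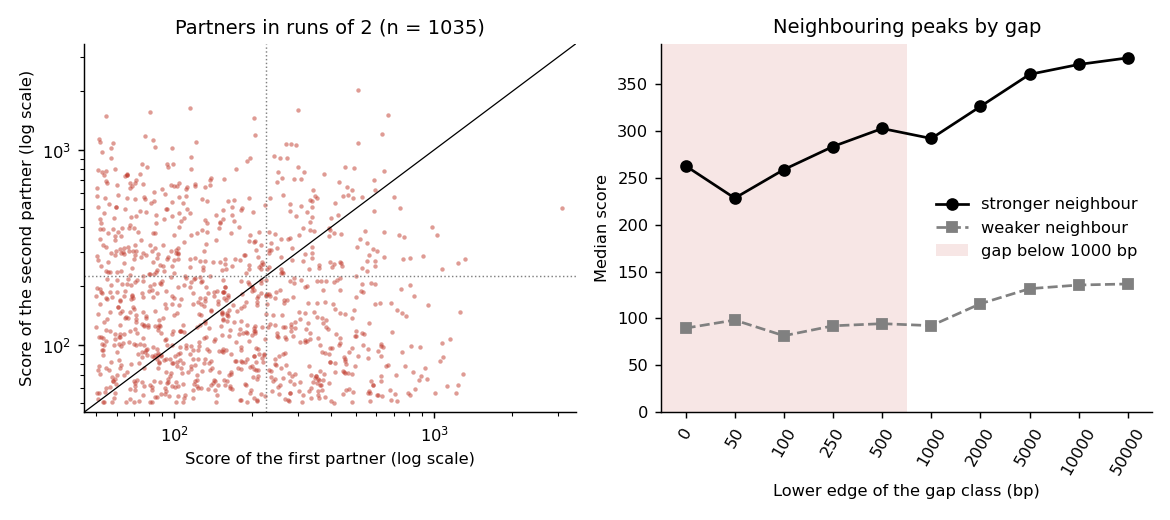
Left, score of the second against the first partner in 1035 runs of 2 (log axes, second meaning the higher coordinate), with the line of equality and, dotted, the median score of all autosomal peaks. Right, median score of the stronger (circles) and weaker (squares) of 2 neighbouring peaks by gap class, shaded where the gap is below 1000 bp; the stronger rises to 378 and the weaker to 137 in the class of 50000 bp or more.

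The deposited score is given per peak, so a run as a whole has none, and its strongest peak is set here beside other peaks as wide as the whole run. Of runs spanning 2000 to below 2500 bp, 278 in number, the strongest peak had a median score of 244, whereas the 811 other peaks of that width had a median of 557. At 3000 to below 4000 bp the medians were 397 over 202 runs and 787 over 136 other peaks, and at 4000 bp or more they were 580 over 116 runs and 1014 over 52 other peaks. The strongest peak of a run is narrower than the run, and score and width were correlated as given above, so a lower score of that peak is built into this setting and the values do not show that runs were weaker. Other peaks of 1000 to below 1500 bp, a range that holds the median width of the stronger partner in runs of 2 (1168 bp), had a median score of 281. Whether the partners are separate sites or parts of 1 bound stretch cannot be told apart without the reads.

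In runs of 3 no place was favoured for the strongest peak. It was the first peak in 30 runs, the middle peak in 31 and the last in 35 of the 96. The weakest was the first in 34, the middle in 36 and the last in 26. The median score was 131 for first peaks, 137 for middle peaks and 148 for last peaks. The median score differed little with run length and was 151 in runs of 2, 144 in runs of 3 and 151 in runs of 4 or more.

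The run with the most peaks lay on chromosome 2 at 8816609 to 8823497. Its 6 peaks scored 50.63, 89.56, 388.13, 76.06, 246.57 and 326.02 in order of position, with gaps of 743, 122, 411, 217 and 79 bp. Strong and weak peaks were thus interleaved along 6889 bp, the weakest of them close to the lowest score in the list.

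The 4 runs of 5 peaks differed in level. On chromosome 3 at 193851516 to 193859973 the scores were 940.69, 1430.24, 320.89, 146.11 and 785.11, with only 3 bp between the 2 strongest. The 837 bp peak of score 1430.24 was thus narrower than all its partners. On chromosome 7 at 556281 to 562824 the scores were 60.15, 117.19, 331.24, 232.98 and 326.6. The run on chromosome 10 at 63656584 to 63663652 scored 76.09, 66, 228.34, 56.78 and 244.25, and the one on chromosome 14 at 99735795 to 99741515 scored 123.8, 67.93, 156.25, 99.9 and 140.66. No peak of the chromosome 14 run reached the median of the list.

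Among the 13 runs of 4 peaks, the first by chromosome lay on chromosome 2 at 172959299 to 172969066 and scored 806.67, 294.6, 1406.91 and 51.92. Its last peak, 650 bp wide, was 203 bp from a 3757 bp peak that scored 27.1 times as high. A run on chromosome 6 at 130339189 to 130342764 contrasted with it, with even scores of 182.84, 196.99, 140.7 and 167.67 and gaps of 68, 187 and 11 bp. On chromosome 7 at 25894400 to 25902783 the scores were 371.6, 551.72, 88.45 and 832.37. On chromosome 8 at 29206080 to 29208862 all 4 peaks were weak, with 67.2, 56.29, 69.35 and 94.01.

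**Figure D4:**
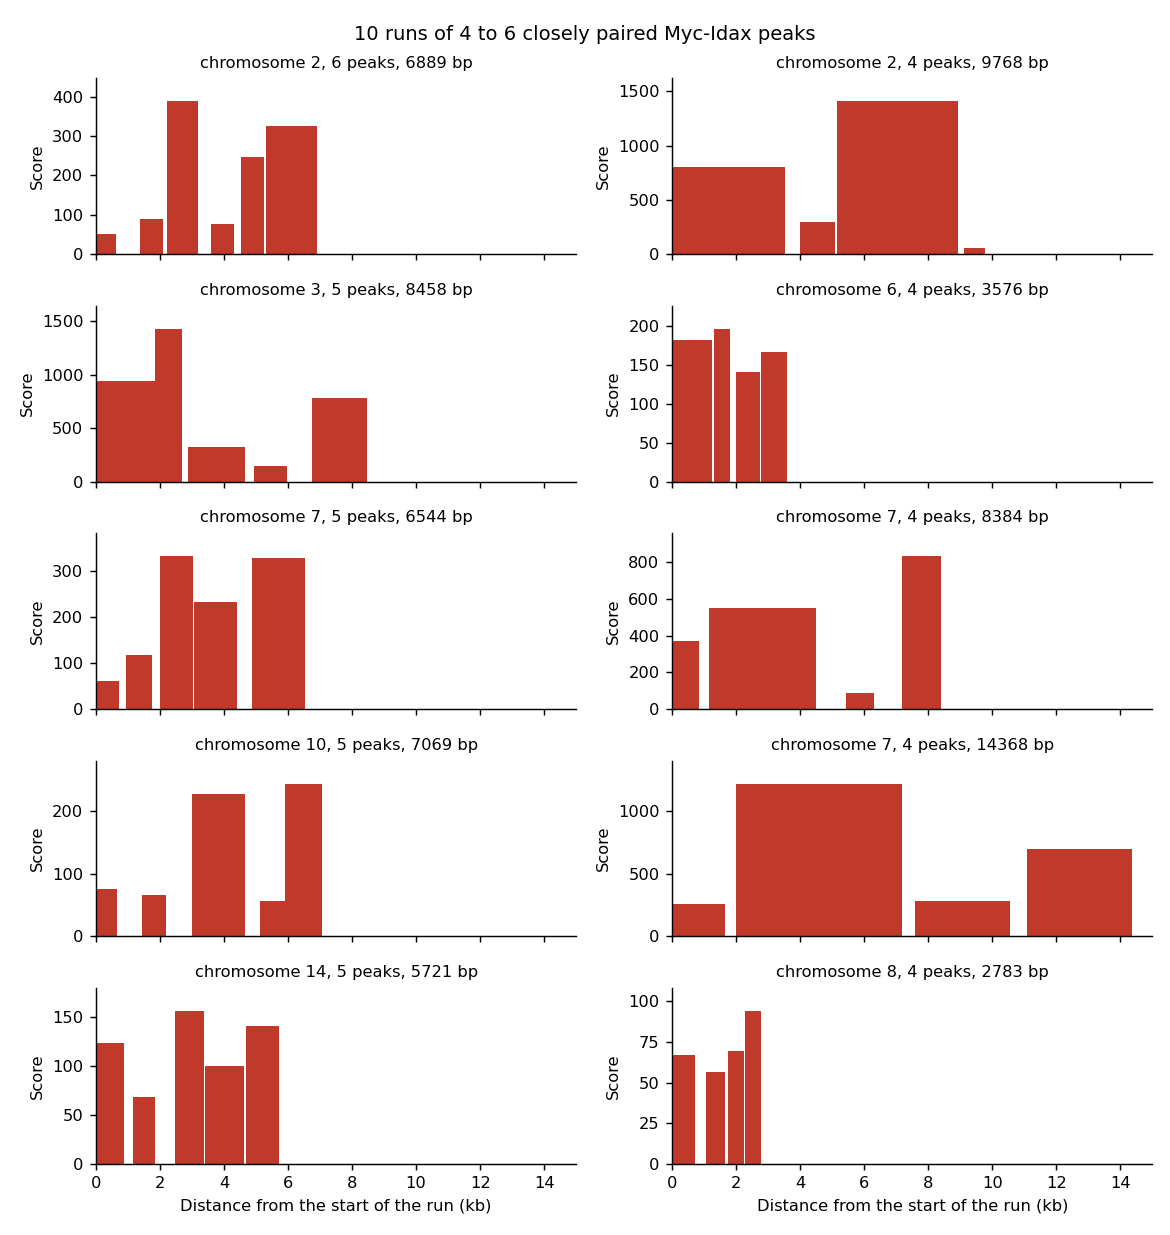
Score (y axis, a scale per panel) of each peak against distance from the start of the run in kb (x axis) in 10 runs of 4 to 6 peaks, with bars as wide as the peaks. Scores within a run ran from nearly even (chromosome 6, 140.7 to 196.99) to 27.1-fold apart (chromosome 2, 51.92 to 1406.91).

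Of the 5 runs of widest span, 3 lay on chromosome 7. The widest, at 27178555 to 27192922, held 4 peaks of 1640, 5181, 2938 and 3295 bp with scores of 258.33, 1221.13, 278.85 and 695.58. The next widest followed on the same chromosome at 27203305 to 27216005, with 3 peaks of 4019, 2524 and 4702 bp and scores of 1039.05, 382.26 and 1854.39. The other run on that chromosome, at 5457976 to 5469923, held the widest of all paired peaks, 8894 bp with a score of 1513.01, which lay 8 bp from a 3046 bp peak of score 662.27. On chromosome 17 at 77807271 to 77819335, 4 wide peaks scored 260, 407.25, 470.22 and 498.85.

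The highest score of the list belonged to a paired peak. That peak, on chromosome 10 at 77158243 to 77166306, scored 3100 over 8064 bp, and its partner 532 bp on scored 501.23 over 2613 bp. On chromosome 5 a peak of score 2042.35 at 98108401 to 98110664 lay 807 bp from one of score 511.41. Weak partners flanked a peak of score 1991.53 on chromosome 1 at 16160485 to 16163118, with 94.15 on the lower side and 136.44 on the upper side. A peak of score 1642.48 on chromosome 21 at 36260092 to 36263997 had a partner of score 114.73. These strong peaks stood beside partners of very different scores.

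In 8 runs of 2 the partners were separated by a single base, and their scores ranged from nearly even to unequal. The higher score was a median of 2.73 times the lower (1.16 to 8.17), and less than 1.5 times in 3 of the 8. On chromosome 1 the peaks at 11967681 to 11969407 and 11969409 to 11970054 scored 410.66 and 50.28. On chromosome 6 such a pair at 52441281 to 52442576 scored 97.92 and 254.14, and another at 121757328 to 121759118 scored 208.98 and 66.87. On chromosome 7 at 116592874 to 116594743 the scores were 80.14 and 229.62, and on chromosome 9 at 125702710 to 125703831 they were 72.99 and 51.54. The other 3 runs, named after their values were seen to complete the set, scored 144.62 and 465.72 on chromosome 11, 257.98 and 349.99 on chromosome 12, and 340.12 and 294.27 on chromosome 17.

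The most unequal partners lay on chromosome 22 at 19417954 to 19420580, where the scores were 54.44 and 1499.06 across a gap of 113 bp. Partners on chromosome 19 at 1271813 to 1276414 followed with 51.46 and 1143.21, and then those on chromosome 7 at 30323488 to 30325946 with 1217.32 and 56.21. Those on chromosome 8 at 101732882 to 101735439 scored 51.92 and 1102.78, and those on chromosome 22 at 31686207 to 31688837 scored 1233.13 and 62.36. In all of these 5 runs the weaker partner lay near the lower end of the list, so its score had little room to be lower.

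Runs of 2 with both partners in the top quartile group of the list (410.9 or more) numbered 22. The most even of them lay on chromosome 10 at 104261376 to 104264615, where the scores were 589.93 and 619.78. Others scored 528.54 and 573.49 on chromosome 19 at 50369936 to 50373721, and 425.82 and 463.41 on chromosome 5 at 107004977 to 107009769. On chromosome 2 at 219260176 to 219265167 the scores were 486.48 and 567.58, and on chromosome 6 at 32935424 to 32941163 they were 589.4 and 702.58. The gaps in these 5 runs ran from 43 to 919 bp.

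Paired peaks occurred on every autosome, in shares from 9.52% (95% interval 8.14 to 11) on chromosome 1 to 19.6% (14.6 to 25.5) on chromosome 18. Chromosome 9 had 19.2% (16.4 to 22.3), chromosome 13 had 19.1% (14.8 to 24.1) and chromosome 19 had 18.1% (16 to 20.4). These chromosomes were picked from the 22 after their values were seen. Peaks of a run are paired together, so the intervals are too narrow to compare chromosomes. Between this share and the number of peaks per Mb there was a Spearman rho of -0.32 and a Pearson r of 0.05 over the 22 autosomes, which share 1 library. Copy number in HEK293T was not taken into account. Lengths in Mb here were the stretch spanned by the peaks of a chromosome, not its whole length. Counted on that length, chromosome 19 held the most runs per Mb, 1.8 with 106 runs, and chromosome 18 the fewest per Mb, 0.257 with 20 runs. They also had the highest and the lowest number of peaks per Mb, 21.4 and 2.82.

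**Figure D5:**
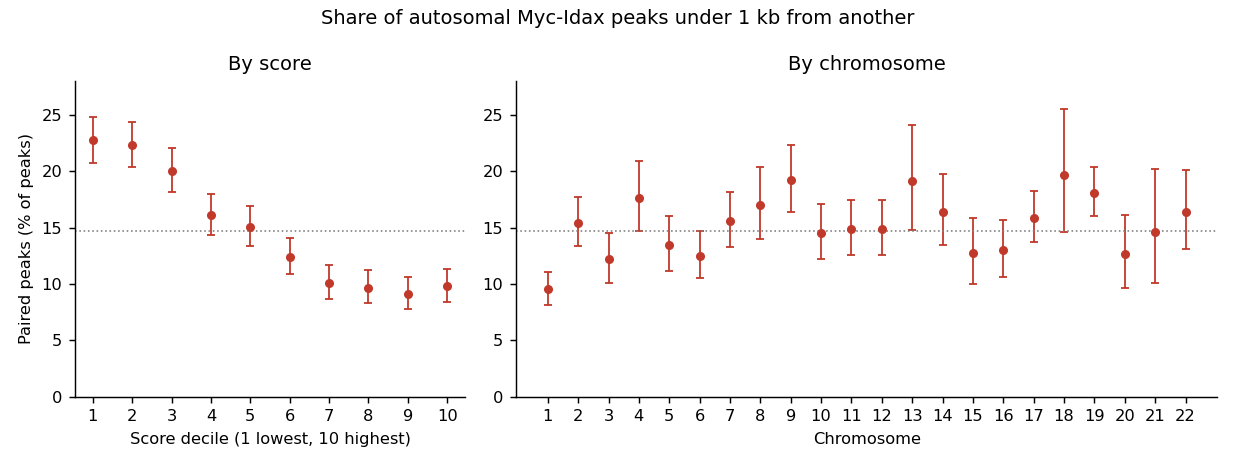
Percent of autosomal wild-type peaks that were paired (y axis), by decile of score (left) and by chromosome (right), with exact 95% intervals for counting error and the share over all autosomal peaks (14.7%) dotted. The share was 22.7% in the lowest decile of score and 9.8% in the highest, and ran from 9.52% on chromosome 1 to 19.6% on chromosome 18.

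Outside their own run, paired peaks had neighbourhoods much like those of other peaks. Within 100 kb they had a mean of 3.58 further peaks and a median of 2, against a mean of 3.19 and a median of 2 for other peaks. The nearest peak outside the run was a median of 31112 bp away for the 1149 runs (quartiles 9195 and 91137 bp) and 31251 bp away for the other peaks (quartiles 11450 and 76862 bp). No further peak lay within 100 kb of 553 paired peaks (22.7%), and the same held for 2657 other peaks (18.9%).

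Some runs lay near other runs all the same. Another run was found within 10 kb of 52 runs (4.53%) and within 100 kb of 226 runs (19.7%), and the median distance to the nearest other run was 426121 bp. No like share was taken over other peaks, so these values do not show whether runs cluster. The window of 1 Mb with the most runs, on chromosome 19 from 1000001 to 2000000, held 12 runs, whose 26 peaks were among 69 in the window. Its neighbour from 1 to 1000000 held 8 runs. Windows on chromosome 19 from 49000001 to 50000000 and on chromosome 22 from 38000001 to 39000000 held 7 runs each, and 530 windows held a single run.

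In the list for the DNA-binding mutant, close pairs were not seen. None of its 35 autosomal peaks had a neighbour in that list within 1000 bp. With so few peaks on all autosomes, this count does not show a difference in pairing from the wild-type list. Of all 16528 autosomal wild-type peaks 10 shared at least 1 bp with a mutant peak (0.0605%). This was so for 1 paired peak (0.0411%, 95% interval 0.00104 to 0.229) and for 9 of the other peaks (0.0639%, 0.0292 to 0.121). The shares lie within each other's intervals, and a difference was not detectable with so few mutant peaks. The 2 lists share the empty-vector cells as their control.

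The overlapped paired peak lay on chromosome 16 at 47007278 to 47008228 and scored 396.15. Its partner at 47006574 to 47007255, 22 bp away, scored 63.01 and was not overlapped. The mutant peak, at 47007459 to 47007668 with a score of 53.97, lay wholly inside the stronger partner.

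Chromosome X, which the rule leaves out, held 76 paired peaks of 550 (13.8%) in 36 runs. Their median score was 146, against 183 in the other peaks of X. None of the 11 peaks of chromosome Y was paired.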

How the data were processed

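Chromatin immunoprecipitation and sequencing gave 1 list of 5 columns per tagged protein. Per the submitters' processing notes, Bowtie 0.12.7, MACS 1.4.1 and hg19 were used. The deposited score per peak, from the authors' peak caller, has no stated scale, and values from 50.01 to 3100 were used only to describe and rank peaks. Deposited starts were taken as 0-based and turned into 1-based ones, and ends were kept as deposited. The sources used here do not say how replicates were combined. The lists give no depth, and a deeper library would raise scores and could close or open gaps.

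Peaks were sorted, and those with a gap below 1000 bp were chained into runs. The chaining was tested on simulated lists with planted runs. Medians are given without tests, since members were chosen from the same peak calls. The members and the measures were chosen with earlier results of these data known. Shares have exact Clopper-Pearson 95% intervals for counting error only. Those over peaks treat peaks as independent, which the members of a run are not. Overlap meant 1 bp or more.

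Named regions were the 5 runs of highest score, the 10 runs of 4 or more peaks with the most peaks (ties by chromosome), the 5 smallest gaps, 5 most unequal and 5 most equal strong runs of 2, the 5 widest runs, the 3 gaps on each side of the limit, and paired peaks overlapped by a mutant peak. Densest windows, the chromosomes named by share, and chromosomes X and Y were chosen after their values were seen. Tables were handled with pandas 2.3.3 and numpy 2.4.6 under Python 3.11.15, intervals were taken from SciPy 1.17.1, and plots were drawn with matplotlib 3.10.9.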

Additional observations from a re-analysis of the deposited data

How the results depend on the processing

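No paired analysis was possible because the result rests on 1 peak list that carries no replicate number, and no replicate could be left out. Of 39 alternative values, 24 stayed close to the reported value and 15 moved. Close meant within 1.5 times a count or the difference in mean neighbours, or within a 95% binomial interval for medians. None changed sign. Keeping only peaks of score 100 or more before gaps were taken left 1065 paired peaks in 509 runs, with a median score difference of -68.9, a width difference of -77 bp, a partner score ratio of 1.75 and 0 paired peaks overlapped by a mutant peak, since the filter removed the weaker partner of that run. With midpoints below 2000 bp apart in place of the gap, the score difference was -107 and the width difference -233.5 bp, a rule that leaves out wide partners by construction. Within quartiles of width the score difference was -32.0, and within quartiles of score the width difference was -3.13 bp. The mean number of further peaks within 100 kb was higher by 0.39 for paired peaks as reported, by 0.15 with gaps below 500 bp, by 0.12 with midpoints and by 0.73 with gaps below 2000 bp; within 1 Mb it was higher by 2.06 (27.2 for paired and 25.1 for other peaks). With a mutant peak allowed within 1 kb, 2 paired peaks were overlapped, both of the same run on chromosome 16. The depth behind each score is unknown.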
